A study of Mus musculus with 8 samples.

Results

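A set of 10 genes of the Notch pathway was followed through the RNA-Seq libraries of mouse bone marrow-derived macrophages (BMDMs): the receptors Notch1, Notch2 and Notch4, the ligand Jag1, the receptor sheddase Adam10, the nuclear factor Rbpj, the ubiquitin ligase Dtx4 and the targets Hes1, Hey1 and Nrarp. The set was chosen by measured values, because Notch1 was higher with the STING antagonist H151 and was not higher with the STING antagonist SN-011. The 10 members were found by Ensembl identifier among 54532 genes. Of these, 9 passed the filter on low counts, as did 14591 genes in all, and Nrarp did not. Differences with either antagonist are therefore given as descriptions with their standard error (SE) and no test, and the comparison of Trex1-KO with WT was tested for the members other than Notch1, whose Trex1-KO values entered the choice.

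Each of the 4 groups held 2 libraries. WT and Trex1-KO BMDMs were grown for 7 days from the marrow of mice aged 6 to 8 weeks, in medium conditioned by L929 cells, and received the vehicle DMSO for 12 h. The animals of both Trex1-KO antagonist groups carried the same whole-body Trex1 deletion, so every antagonist library was also a knockout library, and no WT library received an antagonist. H151 was used at 500 nM for 12 h, and the study's methods give the same concentration and time for SN-011, for which the labels give no dose. The SN-011 libraries were registered apart from the other libraries and carry a differently worded treatment record. Anything that set their preparation apart cannot be told apart from the compound. The study describes the libraries of a group as independent experiments. Whether they came from separate animals is not given in the sources used here, so p-values measure the spread between these libraries.

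Notch receptors are single-pass membrane proteins that are cut outside the membrane by an ADAM sheddase after a ligand on a neighbouring cell has bound, and then inside the membrane by gamma-secretase. The freed intracellular part enters the nucleus, joins RBPJ and a Mastermind coactivator, and switches on genes such as those of the Hes and Hey repressors and Nrarp. In the absence of the signal, RBPJ holds the same genes down with corepressors. In macrophages the pathway is known for shaping inflammatory responses and the fate of monocyte-derived cells.

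Total counts per library ran from 11845470 to 17284863, and 3 counts, the lowest level treated as measurable, were worth 0.174 to 0.254 CPM, the unit in which counts are divided by the library's normalized total. Summed CPM of 7 macrophage markers, most of it from Lyz2, lay between 29600 and 31834 in every library. Of these 7, edgeR called Fcgr1, Cd68 and Adgre1 higher in Trex1-KO against WT, and Fcgr1 lower with each antagonist against Trex1-KO. Of 5 T cell markers, Cd4 alone reached more than 3 counts in a library, and it was lower in Trex1-KO than WT (21.0 against 33.6 CPM, called by edgeR). Of 5 dendritic cell markers, Ccr7 was at 0 in all libraries and 2 were tested, of which Xcr1, also on chromosome 9, was called higher in Trex1-KO (log2 difference 2.88 ± 0.68) and Zbtb46 was not called. In all groups the summed level of 4 B cell markers was at most 0.790 CPM. Trex1 was listed at 0 counts in all 8 libraries, WT included. All of its exonic bases are shared with Atrip, and reads that fit more than 1 gene were taken as not counted. The knockout could not be checked on these counts.

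The promoters of Notch1, the gene the set was chosen for, and of Rbpj, the only member promoter that held the RBPJ core motif, are shown because RBPJ is the DNA-binding factor of the pathway. Sequences are from RefSeq on GRCm38.p6, run 5′ to 3′ on the gene's strand and span 250 bases before to 50 bases after the start site. The Notch1 promoter (minus strand) is chr2:26503773-26504072 and the Rbpj promoter shown (plus strand) is chr5:53590096-53590395. Capitals mark TGGGAA or its reverse complement TTCCCA.
Notch1 promoter: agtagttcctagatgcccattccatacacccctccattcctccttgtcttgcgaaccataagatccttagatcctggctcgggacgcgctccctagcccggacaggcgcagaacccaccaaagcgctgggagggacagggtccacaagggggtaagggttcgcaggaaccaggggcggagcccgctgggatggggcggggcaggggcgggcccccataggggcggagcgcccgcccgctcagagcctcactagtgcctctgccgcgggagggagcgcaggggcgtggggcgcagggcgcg
Rbpj promoter: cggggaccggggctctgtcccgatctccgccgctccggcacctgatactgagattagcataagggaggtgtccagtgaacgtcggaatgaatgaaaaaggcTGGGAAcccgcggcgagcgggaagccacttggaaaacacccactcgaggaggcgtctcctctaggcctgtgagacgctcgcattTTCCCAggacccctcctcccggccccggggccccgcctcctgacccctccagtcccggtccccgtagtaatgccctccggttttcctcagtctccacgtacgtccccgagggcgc
This Rbpj window held 2 matches, which began 149 and 65 bases before the start site, and the Notch1 window held none. RefSeq lists a second, overlapping Rbpj promoter at chr5:53590236-53590535, whose single match, 205 bases before its own start site, is the latter of these 2. RefSeq promoters were found for 7 of the 10 members, not for Hes1, Hey1 or Dtx4. Searched on both strands, the motif was in 1 of these 7 (14.3%), in 15 of 48 other pathway genes (31.2%) and in 28.3% of 27025 genes with a promoter. A match is a description of the letters in the window, and no site was measured here.

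Among the 9 members that passed the filter, Notch1 had the widest difference between the antagonists. Its gene (ENSMUSG00000026923) lies on chromosome 2 from 26457903 to 26516663 (GRCm38, GENCODE M21), and 9.76% of its exonic bases overlap genes on the opposite strand. The WT libraries stood at 94.7 and 95.6 CPM and the Trex1-KO libraries at 92.4 and 84.9. With H151 the libraries stood at 166 and 145 CPM, and with SN-011 at 77.4 and 80.9. Both H151 libraries lay above all other libraries, both SN-011 libraries lay below all others, and WT lay above Trex1-KO without overlap. The fitted log2 difference was 0.81 ± 0.08 (SE) for H151 against Trex1-KO, a 1.75-fold level, and -0.16 ± 0.08 for SN-011 against Trex1-KO, a 0.893-fold level. Set directly against each other, SN-011 was 0.509-fold of H151. Compared with WT, the level was 1.63-fold with H151 and 0.831-fold with SN-011, and Trex1-KO without antagonist differed from WT by -0.10 ± 0.08 on the log2 scale. These values chose the set and carry no test.

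**Figure D1:**
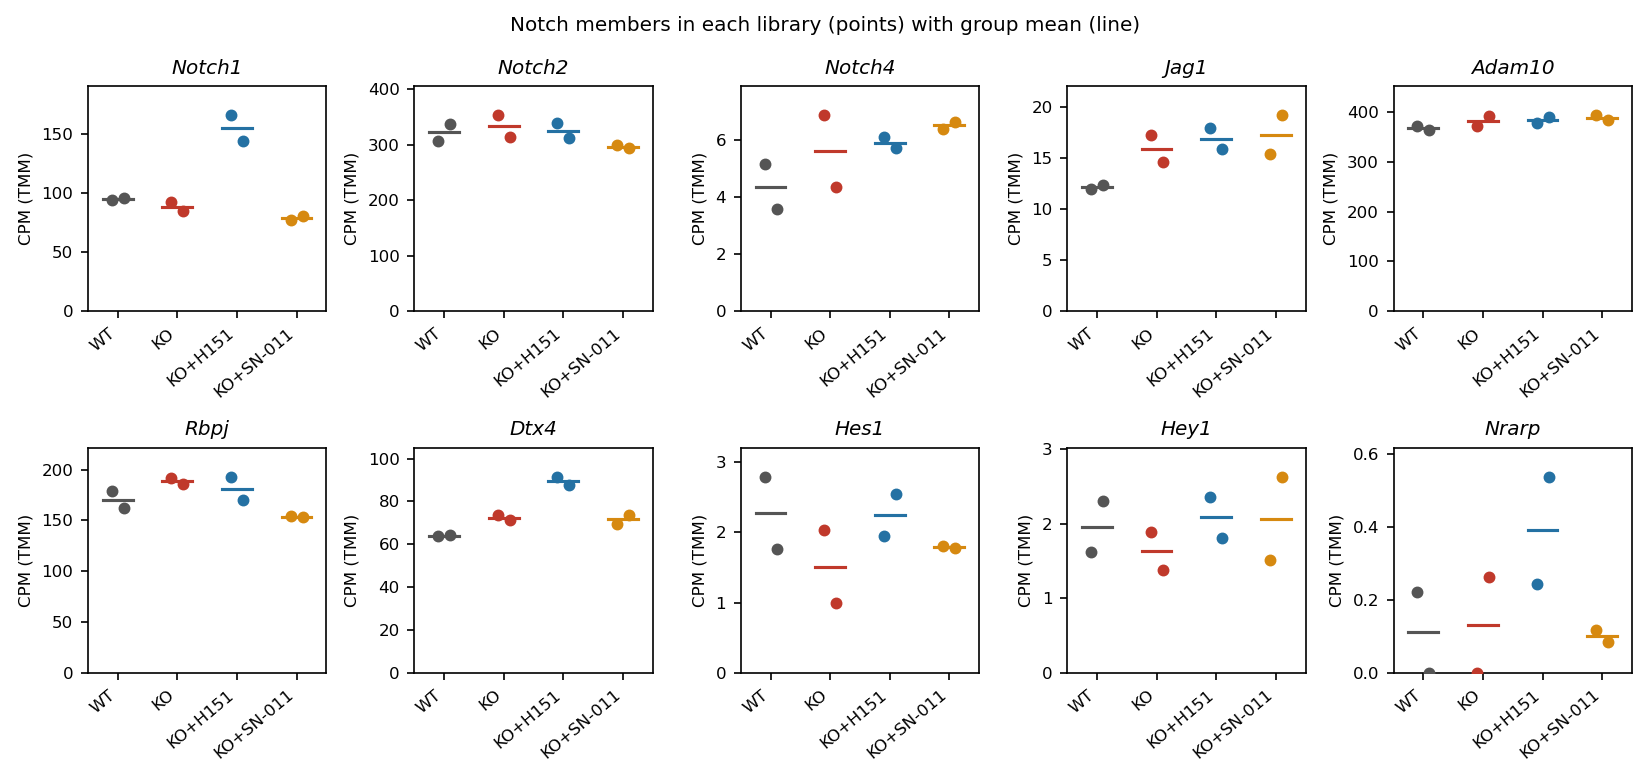
Level of the 10 Notch members in each library, in TMM-normalized CPM on the vertical axes (each starting at 0), by group on the horizontal axes; points are the 2 libraries of a group and the line is their mean. Notch1 and Dtx4 sit highest in both H151 libraries, Rbpj sits lowest in both SN-011 libraries, and Nrarp stays below 0.54 CPM throughout.

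For the other 2 receptors of the set the H151 libraries did not stand apart. Notch2, the receptor with the highest level per kilobase here, stood at 307 and 337 CPM in WT, 353 and 314 in Trex1-KO, 339 and 312 with H151, and 299 and 294 with SN-011. The SN-011 libraries were the lowest of the 8, while the other 3 groups overlapped. Its log2 difference from Trex1-KO was -0.03 ± 0.07 with H151 and -0.17 ± 0.07 with SN-011, and the latter was -0.08 without Trex1-KO replicate 1. Notch4, a receptor best known from endothelium, had 53 to 110 counts per library. It stood at 5.15 and 3.59 CPM in WT, 6.86 and 4.35 in Trex1-KO, 6.10 and 5.70 with H151, and 6.39 and 6.62 with SN-011, and the Trex1-KO pair spanned both antagonist groups. The H151 difference of 0.08 ± 0.24 on the log2 scale became 0.44 without Trex1-KO replicate 1, and the SN-011 difference of 0.22 ± 0.24 became 0.58. Without Trex1-KO replicate 2 the signs turned, to -0.22 with H151 and -0.08 with SN-011. Summed CPM of 6 endothelial markers was 28.4 to 28.8 in WT, 49.0 to 60.4 in Trex1-KO, 60.9 to 68.3 with H151 and 57.1 to 59.4 with SN-011, 4 of the 6 passing the test as higher in Trex1-KO compared with WT and none being at 0 in all libraries. Their part in the Notch4 values was not tested.

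Jag1, a Notch ligand carried on the surface of the signalling cell, was lower in both WT libraries than in any knockout library. It stood at 12.0 and 12.3 CPM in WT, 17.3 and 14.6 in Trex1-KO, 17.9 and 15.8 with H151, and 15.3 and 19.2 with SN-011. The 3 knockout groups overlapped, with log2 differences from Trex1-KO of 0.08 ± 0.14 with H151 and 0.11 ± 0.14 with SN-011. Adam10, the protease that makes the ligand-dependent cut, was the member with the narrowest range. Its 8 libraries ran from 364 CPM in a WT library to 393 in an SN-011 library, with WT below both antagonist groups and overlapping Trex1-KO. The log2 difference from Trex1-KO was 0.01 ± 0.05 with H151 and 0.02 ± 0.05 with SN-011.

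Rbpj, which encodes the DNA-binding factor of the pathway, was lowest with SN-011. The libraries stood at 179 and 162 CPM in WT, 192 and 186 in Trex1-KO, 193 and 169.7 with H151, and 154 and 153 with SN-011. Both SN-011 libraries lay below the other 6, and the H151 pair spanned both Trex1-KO libraries. The level with SN-011 was 0.812-fold of Trex1-KO (log2 difference -0.30 ± 0.07), against -0.06 ± 0.07 with H151. Pseudogenes named after Rbpj are annotated, and how reads shared with them were assigned was not tested.

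Dtx4, a Deltex family ubiquitin ligase that acts on Notch receptors, was the second member that stood highest with H151. It stood at 63.7 and 64.4 CPM in WT, 73.5 and 71.1 in Trex1-KO, 91.5 and 87.7 with H151, and 69.6 and 73.7 with SN-011. Both H151 libraries lay above the other 6 and both WT libraries below the other 6, while Trex1-KO and SN-011 overlapped. The level with H151 was 1.24-fold of Trex1-KO, a log2 difference of 0.31 ± 0.07, and with SN-011 the log2 difference was -0.01 ± 0.07. Its position is chromosome 19 from 12466338 to 12501454.

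Summed levels of markers of other cell types also differed between these groups. The 6 stromal markers summed to 848 to 1045 CPM in Trex1-KO, 1089 to 1198 with H151 and 919 to 1104 with SN-011. Most of this sum came from Col1a1 and Col1a2. The H151 libraries lay above both Trex1-KO libraries and overlapped SN-011. The endothelial sums given above were likewise higher in both H151 libraries than in the Trex1-KO or SN-011 libraries. With H151 against Trex1-KO, 0 of 5 tested stromal and 0 of 6 endothelial markers were called by edgeR. Of these, 2 and 3 had an unadjusted p under 0.05, and the share of all genes at that p is not given here. The part of such cells in the Notch1 and Dtx4 values was not tested.

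The 3 target genes had the lowest counts of the set. Hes1, a repressor gene switched on by Notch, had 38 and 26 counts in WT, 27 and 15 in Trex1-KO, 24 and 38 with H151, and 31 and 21 with SN-011. In CPM, the H151 libraries held 1.95 and 2.55 and the Trex1-KO libraries 2.03 and 0.988, which overlap. The fitted H151 difference of 0.60 ± 0.39 on the log2 scale rested on the knockout libraries, being 1.19 without Trex1-KO replicate 1 and 0.16 without Trex1-KO replicate 2. Hey1, a related repressor, had 22 and 34 counts in WT, 25 and 21 in Trex1-KO, 29 and 27 with H151, and 26 and 31 with SN-011. In CPM all 4 groups overlapped. Its log2 difference from Trex1-KO was 0.35 ± 0.37 with H151 and 0.31 ± 0.37 with SN-011. With 1 library left out, these ran from 0.14 to 0.58 and from -0.10 to 0.69.

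Nrarp, a target that feeds back on the Notch nuclear complex, had 3 and 0 counts in WT, 0 and 4 in Trex1-KO, 3 and 8 with H151, and 2 and 1 with SN-011. Only 2 libraries exceeded 3 counts, so no fold is given. For 79.4% of its exonic bases a gene on the opposite strand overlaps, and reads that fit both were taken as not counted. The SE of 0.39 for Hes1 and 0.37 for Hey1, against 0.08 for Notch1, sets how small a change these counts could show.

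Levels were compared between genes per kilobase of exonic length. This length joins the exons of all annotated transcripts, 11 for Notch1, 12 for Rbpj and 1 for Dtx4, whether or not they were in use. In Trex1-KO, Adam10 held 77.7 ± 2.72 CPM per kilobase (SD, n = 2), Notch2 30.9 ± 2.56, Rbpj 14.8 ± 0.306, Dtx4 13.8 ± 0.317 and Notch1 6.23 ± 0.372. Jag1 followed with 2.73 ± 0.328, and Hes1 (0.742 ± 0.363), Notch4 (0.695 ± 0.220) and Hey1 (0.50 ± 0.108) did not differ beyond their spread. Nrarp stood at 0.0510 ± 0.0722, which is likely understated, as its length includes the 79.4% of bases overlapped on the opposite strand. With H151, Notch1 reached 10.9 ± 1.06 CPM per kilobase, still below Dtx4 at 17.1 ± 0.502 and Rbpj at 14.2 ± 1.29.

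In the comparison of Trex1-KO with WT, 0 of the 8 members tested (Notch1 and Nrarp apart) passed a false discovery rate (FDR) of 0.05 in edgeR's quasi-likelihood test. Over all tested genes 16.4% were called. At an unadjusted p under 0.05 there were 2, Jag1 and Dtx4, and DESeq2 called 0. The share of all tested genes at that unadjusted p is not given here, and it cannot be below the 16.4% called. The highest and lowest fitted values were those of Jag1 (0.38 ± 0.15 on the log2 scale, edgeR adjusted p = 0.102) and Hes1 (-0.60 ± 0.39, edgeR adjusted p = 0.355). Dtx4 differed by 0.18 ± 0.07 (edgeR adjusted p = 0.103) and Rbpj by 0.15 ± 0.07 (edgeR adjusted p = 0.202), both with higher values in both knockout libraries. Notch2, Notch4, Adam10 and Hey1 had edgeR adjusted p-values of 0.717, 0.407, 0.610 and 0.696. Per the study's methods WT mice were purchased and knockout mice were bred by crossing, so genotype and source of the mice cannot be told apart. The median of these 8 was 0.10 on the log2 scale, against -0.002 over all tested genes. A p that misses the threshold does not show that these levels were alike in the 2 genotypes.

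**Figure D2:**
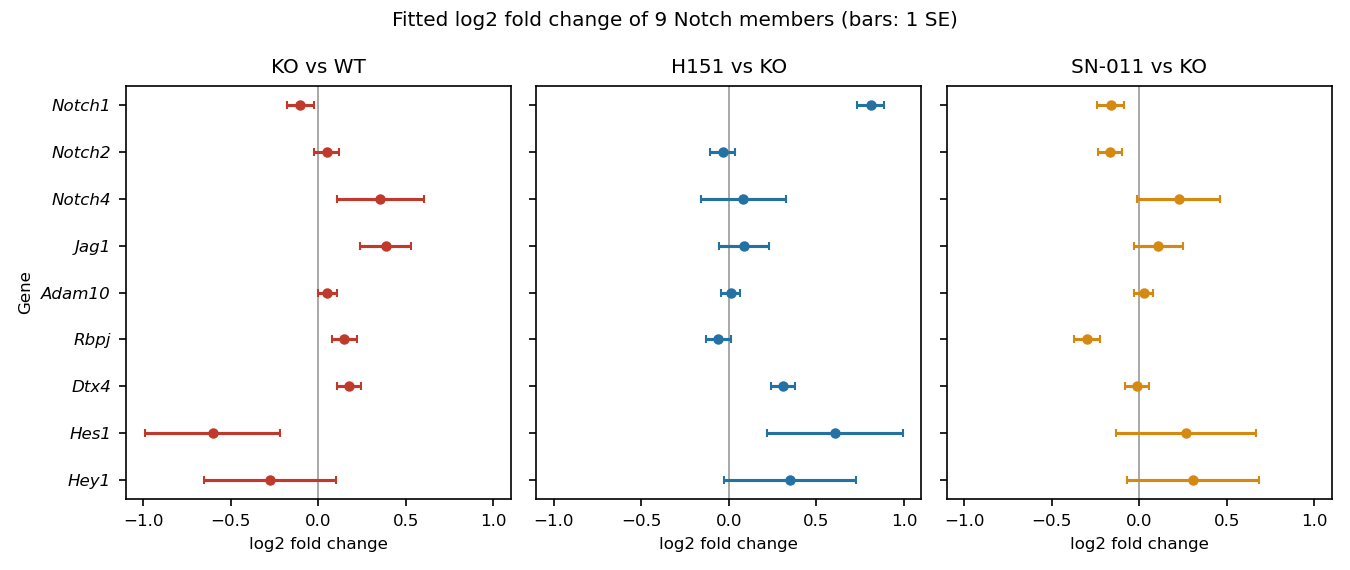
Fitted log2 fold change on the horizontal axis for the 9 members that passed the filter (vertical axis), with bars of 1 SE, for Trex1-KO against WT, H151 against Trex1-KO and SN-011 against Trex1-KO. Notch1 (0.81) and Dtx4 (0.31) stand to the right of 0 with H151, Rbpj (-0.30) stands to the left with SN-011, and the targets Hes1 and Hey1 have the widest bars.

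Beyond the members, 57 other genes of the pathway were listed by role, and 49 passed the filter. Between Trex1-KO and WT, 12 of the 49 were called, 8 higher and 4 lower, against 9.27% of all genes called higher and 7.11% called lower. Leaving out either WT library lowered the count of calls both in this list and over all genes. The role with the most higher genes was that of the proteases that release the receptor. Of 7 sheddase and gamma-secretase genes, 4 were called higher and 0 lower, with a median log2 difference of 0.26. The sheddase Adam10 is not among these 7, being a member, and was not called (0.05 on the log2 scale). Adam17, a second ADAM sheddase, stood at 414 and 373 CPM in WT and 516 and 487 in Trex1-KO, 1.27-fold. Psen2, a gamma-secretase subunit, rose 1.26-fold, and Ncstn, the subunit that binds the receptor, rose 1.20-fold but was called under 12 of 16 other settings. Aph1b also rose, by 0.46 on the log2 scale, but has a near-identical neighbour, Aph1c, with which reads could have been shared. All these pairs were without overlap. The other 4 genes called higher were the endocytic adaptor Numb (0.31), the acetyltransferases Ep300 (0.24) and Crebbp (0.28) and the corepressor Tle4 (0.40), of which Numb and Crebbp were called under 8 of 16 other settings and Ep300 under 9.

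The 4 genes called lower had wider changes than any of the 8 called higher. Nedd4, a ubiquitin ligase, stood at 235 and 212 CPM in WT and 84.3 and 74.6 in Trex1-KO, and fell by 1.49 ± 0.11 on the log2 scale (edgeR adjusted p = 3.42e-07). Nedd4 (72662346 to 72749852) and Aph1b (66775202 to 66795490) are on chromosome 9, as Trex1 is, and so are Adam10, Aph1c, Tle3 and Maml2, none of which was called. With H151 it stood at 111 and 90.5 CPM and with SN-011 at 93.2 and 76.6, below WT in every library. Tle2, a corepressor, fell by 0.78 ± 0.15 (edgeR adjusted p = 0.00185), from 17.1 and 19.2 to 11.5 and 9.62 CPM. Maml3, a Mastermind coactivator, fell by 0.66 ± 0.21 (edgeR adjusted p = 0.0441) but was called under 9 of 16 other settings, and the Numb relative Numbl fell by 0.50 ± 0.13 (edgeR adjusted p = 0.0187). Summed CPM of 6 stromal markers, most of it from Col1a1 and Col1a2, was 2067 to 2262 in WT and 848 to 1045 in Trex1-KO. Of 5 tested, 4 were called lower in the knockout. Dcn, the other one tested, was not called, with means of 2.17 CPM in WT and 2.99 in Trex1-KO. The sum of 6 neutrophil markers was 3.79 to 3.97 CPM in WT against 38.1 to 42.1 in Trex1-KO, with 4 of 4 tested called higher. Ngp, Ltf and Camp, which made up most of the neutrophil sum, lie on chromosome 9 between 109847379 and 111042767, close to Trex1 at 109057933 to 109059734, and Retnlg, the other one tested, lies on chromosome 16 and was 3.86-fold higher. The part of such cells in these pathway values was not tested, and in bulk RNA fewer cells of a type and less RNA per cell cannot be told apart.

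The remaining roles held few or no calls. None of 10 genes that modify ligands and receptors was called. Of the 6 other ligands, Dll4 and Jag2 passed the filter and neither was called, and Dll3 was listed at 0 counts in all libraries. Notch3 had 27 to 65 counts per library and a log2 difference of -0.71 ± 0.32 (edgeR adjusted p = 0.166). Against Trex1-KO, at 3.39 and 1.91 CPM, it stood at 4.56 and 3.02 with H151 and 3.49 and 2.29 with SN-011, which overlap, and its log2 difference was 0.52 ± 0.33 with H151 (edgeR adjusted p = 0.751) and 0.17 ± 0.33 with SN-011 (edgeR adjusted p = 0.890). Scaling to total counts alone, which shifted the median of all genes to -0.09, left 4 genes called higher and 4 lower, and over all genes 37.2% of calls were then higher.

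**Figure D3:**
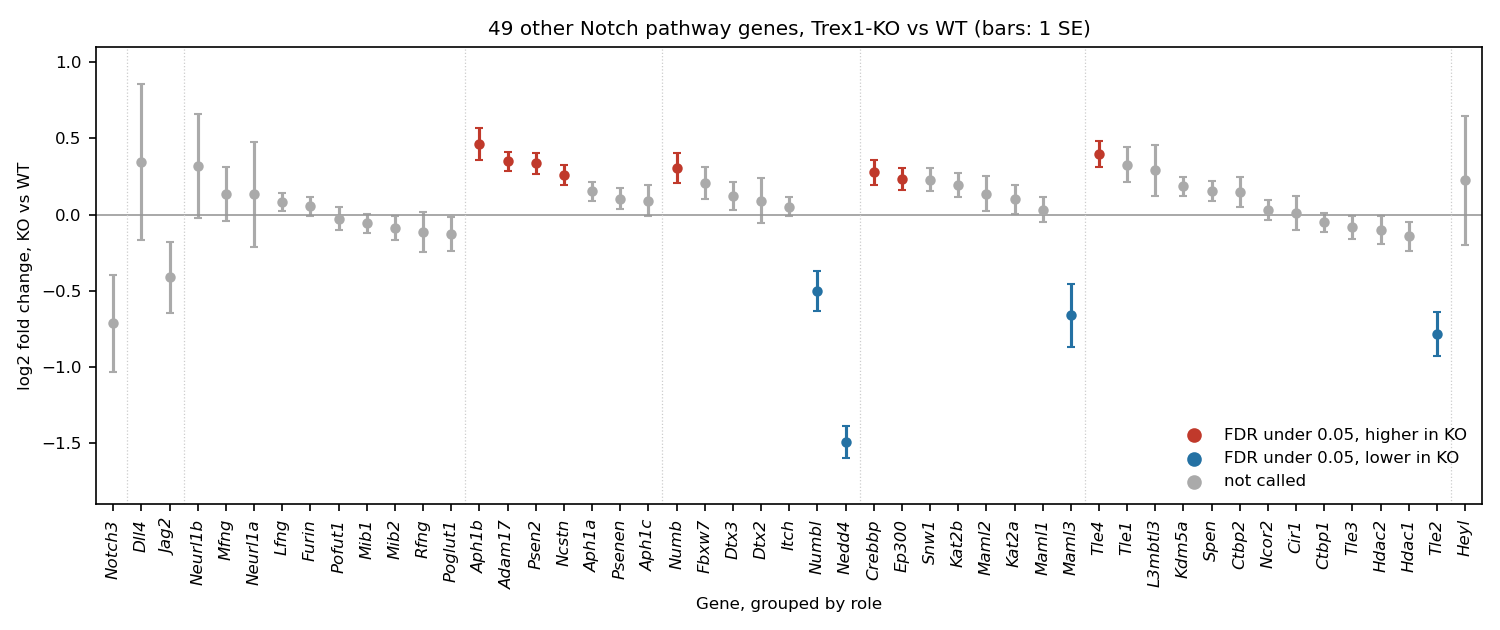
Log2 fold change of Trex1-KO against WT on the vertical axis for the 49 other pathway genes that passed the filter, grouped by role along the horizontal axis (dotted lines part the roles), with bars of 1 SE; red and blue mark an FDR under 0.05. The 4 red genes of the protease group lie between 0.26 and 0.46, and Nedd4 lies lowest at -1.49.

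With either antagonist, calls over all genes were few against Trex1-KO, 2.23% with H151 and 2.33% with SN-011, and counts of 0 in a list of 49 are near that background. With H151, 0 of 49 were called in edgeR's quasi-likelihood test, 6 had an unadjusted p under 0.05, and both DESeq2 and the exact test of edgeR called 0. With SN-011, 0 of 49 were called, 9 had an unadjusted p under 0.05, DESeq2 called 0, and the exact test of edgeR called 1, Adam17. The share of all genes at that unadjusted p is not given here for either antagonist, so these counts are descriptions. Adam17 stood at 436 and 426 CPM with H151 and at 420 and 432 with SN-011, below both Trex1-KO libraries. Its log2 difference was -0.22 ± 0.06 with H151 (edgeR adjusted p = 0.116). With SN-011 it was -0.24 ± 0.06 (edgeR adjusted p = 0.0696). Medians over the list were 0.02 and -0.01 on the log2 scale.

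The genes whose log2 CPM followed Notch1 most closely over the 8 libraries were described by Pearson's r among 10714 genes. The points are 8 libraries in 4 groups, so r is a description with no p. Ahrr, the repressor of the aryl hydrocarbon receptor, had an r of 0.963, and stood at 32.0 and 32.3 CPM with H151 against 16.1 and 14.6 in Trex1-KO and 14.9 and 11.6 with SN-011. Its H151 log2 difference of 1.06 exceeded that of Notch1. The other 4 were Emb (0.962), an immunoglobulin-family membrane protein, Exoc3 (0.958), a subunit of the exocyst, Tanc2 (0.956) and Ltbr (0.950), the lymphotoxin beta receptor. Their H151 log2 differences were 0.45, 0.34, 0.41 and 0.10, all smaller than that of Notch1. Among the members Dtx4 had an r of 0.81 with Notch1, and the other 7 that passed the filter lay between -0.06 and 0.46.

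**Figure D4:**
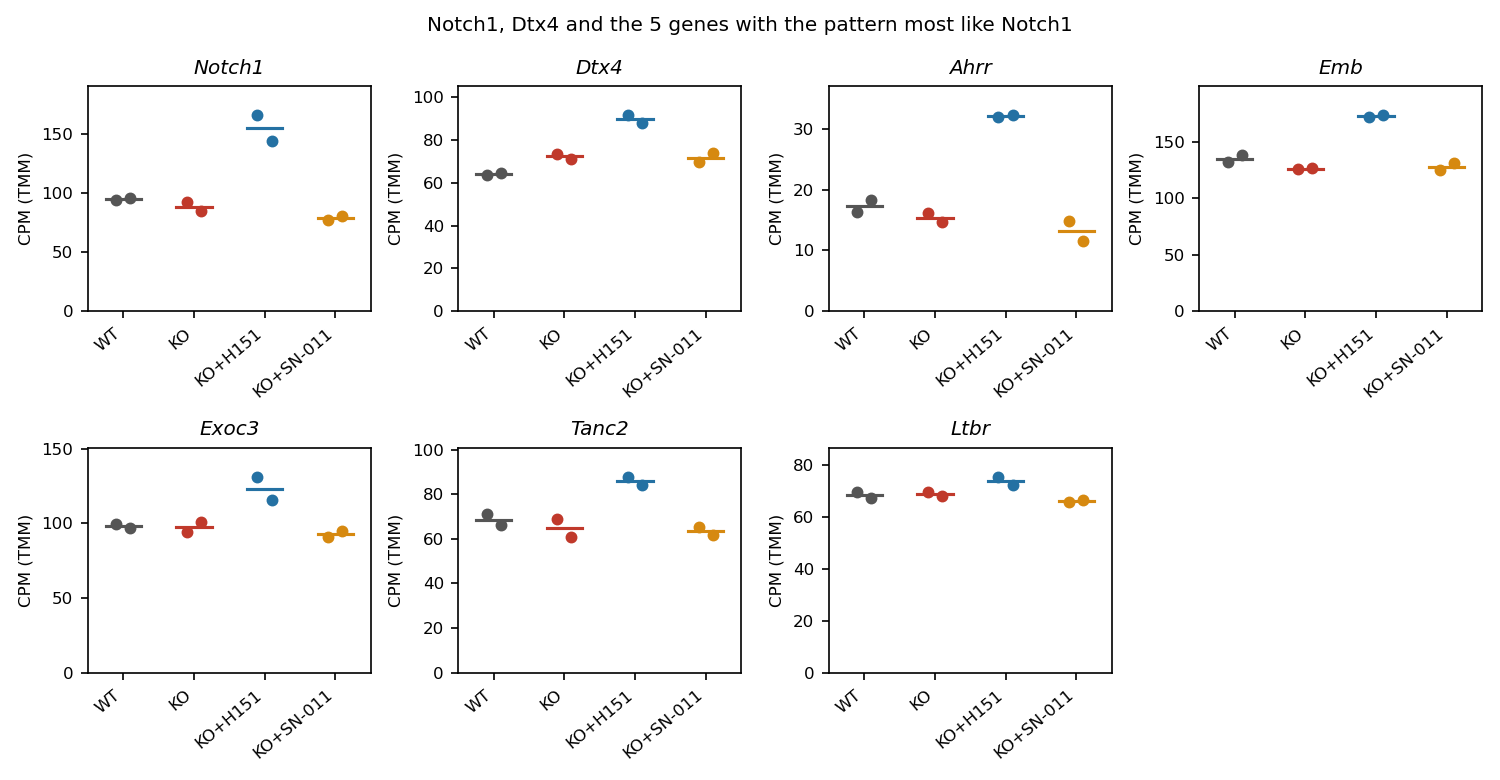
Level in TMM-normalized CPM (vertical axes, each starting at 0) by group (horizontal axes) for Notch1, Dtx4 and the 5 genes with the pattern most like Notch1; points are libraries and lines are group means. In all 7 panels the highest mean is that of H151, with Ahrr at 32.1 and Ltbr at 73.6 CPM.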

How the data were processed

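Polyadenylated RNA from 8 libraries was sequenced as read pairs. Per the labels and the study's methods, the authors trimmed reads with Trimmomatic and aligned them with hisat2. The methods name featureCounts and the submitters' processing notes name HTSeq for the counting, on mm10, and versions, annotation and the strand setting of the counting are not given in the sources used here. The methods describe the library preparation as strand-specific. Among 484 genes fully covered by opposite-strand exons, 2 had a count in any library, so shared reads were taken as not counted for either gene. The deposited values are raw counts per Ensembl gene, with no normalization. Symbols and positions came from GENCODE M21 (GRCm38).

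Sample titles gave the groups and replicate numbers. Low genes were removed by filterByExpr of edgeR 4.0.16 (R 4.3.3; minimum count 10, minimum total 15), and counts were scaled by TMM and fitted together over all 8 libraries with 1 mean per group. Contrasts were tested two-sided by quasi-likelihood, p-values were adjusted over 14591 genes by the Benjamini-Hochberg method, and the FDR threshold was 0.05. SE values are approximate, derived from the F statistic. The steps were tested on simulated data with the same spread for every gene and changes only between Trex1-KO and WT. Those changes were larger than most called here, so smaller changes, unequal spread and the antagonist contrasts were not covered. Alternatives were other scalings and filters, DESeq2 1.42.0, edgeR's exact test, a fit on 2 groups, a replicate block and leaving out each library. Total counts ran from 11845470 to 17284863, and floors cover counting error only. Named genes were all members, up to 4 called pathway genes with the largest change per contrast, and the 5 genes most like Notch1 among those averaging 2 or more on the log2 CPM scale. Adam17 and other pathway genes were named after their values were seen. The members and gene lists were chosen with earlier results of these data known. The list of other pathway genes leaves out 1 gene, which is not reported here.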

Additional observations from a re-analysis of the deposited data

How the results depend on the processing

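The count of members called between Trex1-KO and WT, Notch1 apart, was 0 under all 16 alternatives. For the 12 other pathway genes called in that comparison, DESeq2 gave 7, and leaving out 1 library gave 6 to 12, with 6 without WT replicate 1 and 6 without WT replicate 2. Adam17, Psen2, Nedd4 and Tle2 were called under all 16, Aph1b and Tle4 under 15, Numbl under 13, Ncstn under 12, Maml3 and Ep300 under 9, and Numb and Crebbp under 8. For H151 against Trex1-KO, the count of 0 became 2 (Adam17 lower, Nedd4 higher) when every gene with at least 1 count was tested, and 0 to 1 when 1 library was left out, the 1 being without Trex1-KO+H151 replicate 2. For SN-011 against Trex1-KO, the count of 0 became 1 when every gene with at least 1 count was tested, 1 with the exact test, 1 with only the 2 groups compared, and 0 to 1 when 1 library was left out, the 1 being without Trex1-KO+H151 replicate 1 or 2. The gene was Adam17 in each of these for SN-011. The causes were not tested.

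With the replicate number as a block, the pathway counts were 13 for Trex1-KO against WT, 1 for H151 (Nedd4) and 1 for SN-011 (Adam17). What the number means is not stated in the labels. Deviations of same-numbered libraries correlated at 0.45 between Trex1-KO and H151 and 0.09 between WT and Trex1-KO. They correlated at -0.05 between Trex1-KO and SN-011 and -0.03 between H151 and SN-011. The main fit used no pairing, and whether same-numbered Trex1-KO and H151 libraries shared a culture is not stated. Dll4 and Notch3 stood higher with H151 in each same-numbered pair although these groups overlap, and Hes1 and Notch4 did not.

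Over the alternatives the Notch1 log2 difference ran from 0.71 to 0.91 with H151 and from -0.22 to -0.10 with SN-011, that of Dtx4 with H151 from 0.28 to 0.34, and that of Rbpj with SN-011 from -0.32 to -0.27. Counts were lowest for Nrarp, Hes1, Hey1 and Notch4 among the members. Hes1 in Trex1-KO against WT ran from -1.20 to -0.15, and Notch4 from -0.01 to 0.66.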

Other observations

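Of the 5 genes with the pattern most like Notch1, Ahrr and Exoc3 are neighbours on chromosome 13, on the same strand and 2385 bases apart. Ahrr lies from 74211118 to 74292331 and Exoc3 from 74169488 to 74208732. The H151 log2 difference was 1.06 for Ahrr and 0.34 for Exoc3, and with SN-011 it was -0.20 and -0.07. Whether reads of one were counted for the other was not tested.

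Among ligands and targets outside the set, Dll4 had 12 to 35 counts per library and stood at 2.85 and 1.48 CPM with H151 against 1.58 and 0.790 in Trex1-KO, which overlap. Jag2 stood at 6.10 and 5.57 CPM with H151 against 4.37 and 3.69 in Trex1-KO, without overlap, and did not pass the FDR threshold of 0.05 (edgeR adjusted p = 0.466). Heyl, the only tested target outside the set, stood at 1.30 and 1.34 CPM with H151 against 1.96 and 1.38 in Trex1-KO, a log2 difference of -0.33 ± 0.43 (edgeR adjusted p = 0.936). Dll1, which did not pass the filter, had 1 and 6 counts with H151 against 12 and 7 in Trex1-KO.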
